A study of Mus musculus with 9 samples.

Results

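Genes of bone formation were followed through RNA-seq libraries of the mouse trigeminal ganglion (TG), the ganglion that holds the sensory neurons of the face and jaw. They are Bglap, Bglap2, Ibsp, Dmp1, Mepe, Sp7, Runx2, Alpl and Phex. The 9 were chosen by name, with their levels in these libraries already known, so their values are a description and no test is given for them. All 9 were found among the 21809 genes of the mRNA table, and all 9 passed the filter of a mean of at least 0.1 FPKM, as did 16096 genes in all. FPKM counts the fragments of a transcript relative to its length and to the depth of the library, and a gene's level is the sum over its transcripts.

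TG tissue was taken from male C57BL/6 wild-type mice aged 8 weeks after a unilateral injection of 10 µl into the temporomandibular joint (TMJ). The injection held saline (saline replicates 1 to 3, labelled day 3) or complete Freund's adjuvant (CFA) at 5 mg/ml, an oil emulsion with killed mycobacteria that inflames the joint. CFA tissue was taken on day 3 (CFA3D replicates 1 to 3) or day 6 (CFA6D replicates 4 to 6). Each library pooled tissue of 3 mice, so n = 3 pools per group, and no saline library of day 6 stands beside CFA6D, so that day and treatment cannot be told apart there. The libraries held 30.0 to 42.2 M read pairs, so that 0.0237 to 0.0333 FPKM stood for 1 read pair at a length of 1 kb. The tissue showed its labelled identity: sensory neuron genes, led by Tubb3, Nefl and Prph, summed to 1907 to 2925 FPKM, and genes of satellite glia and Schwann cells, among them Pmp22 and Mbp, to 3262 to 4040 FPKM. Saline replicate 3 had the lowest sum of sensory neuron genes.

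Osteoblasts build bone by laying down a matrix of type I collagen and then mineralising it. Runx2 and then Sp7 (osterix) are the transcription factors that commit cells to this fate, Alpl is the phosphatase that removes the mineralisation inhibitor pyrophosphate, and osteocalcin (Bglap and Bglap2) and bone sialoprotein (Ibsp) are secreted into the matrix late in the programme. Dmp1, Phex and Mepe are typical of osteocytes, the cells that osteoblasts become once they are buried in bone, and they act in mineralisation and phosphate balance. None of these genes is known as a marker of sensory neurons or their glia, although Alpl and Runx2 are also used by other cells.

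The levels differed widely between libraries of the same group. For 6 of the 9 genes (Bglap, Bglap2, Ibsp, Dmp1, Mepe and Phex) the 3 highest libraries were saline replicate 3, CFA6D replicate 5 and CFA6D replicate 6. Over all genes tested, 1.82% had these 3 libraries at the top. CFA6D replicate 6 was the highest library for 7 of the 9, against 17.5% of all genes tested. Since the genes were chosen on these levels, the counts describe the choice. The 5 genes of secreted matrix proteins together stood at 19.6, 19.3 and 47.7 FPKM in these 3 libraries and at 2.09 to 7.19 FPKM in the other 6, without overlap.

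**Figure D1:**
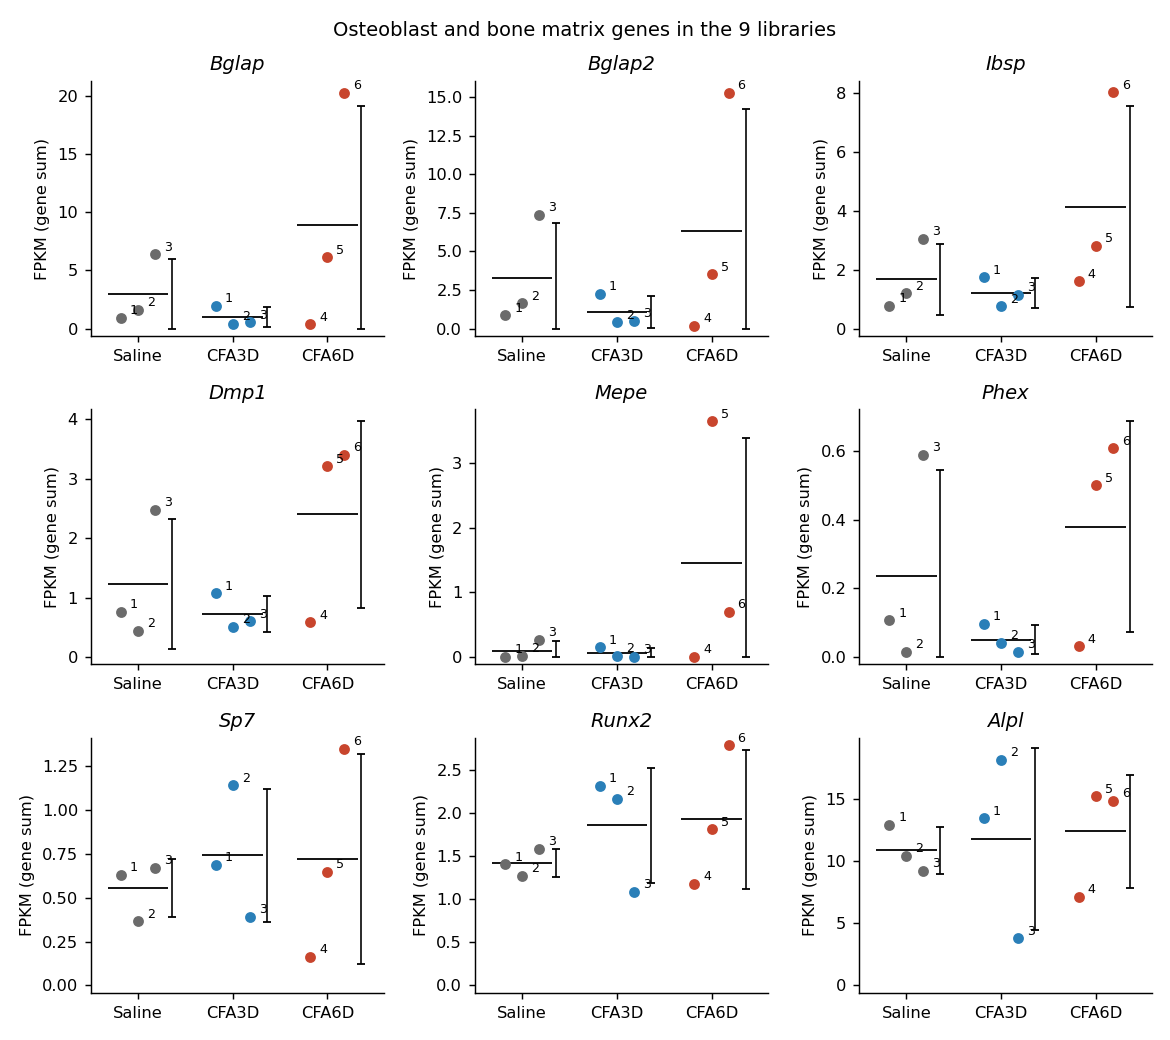
Level of each of the 9 genes (FPKM, y axis, a separate linear scale for each gene) in the 3 groups (x axis). Points are libraries with their replicate number, horizontal lines are group means and the bars beside them are the SD (n = 3), drawn no lower than 0. Saline replicate 3 and CFA6D replicates 5 and 6 stand above the other libraries for the first 6 genes, with Mepe at 3.65 FPKM in CFA6D replicate 5, and Alpl is highest at 18.2 FPKM in CFA3D replicate 2.

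Bglap (ENSMUSG00000074483, chr3:88383501-88384464, minus strand, GRCm38) encodes osteocalcin, a small protein that binds the mineral of bone. It stood at 0.900, 1.63 and 6.39 FPKM in saline replicates 1 to 3, at 1.97, 0.420 and 0.550 FPKM in CFA3D replicates 1 to 3, and at 0.360, 6.12 and 20.3 FPKM in CFA6D replicates 4 to 6. The highest and the lowest of the 9 values both came from day 6, 56.3 times apart, so CFA6D covered the whole range of the other groups. The means were 2.97 ± 2.98 FPKM in saline, 0.982 ± 0.862 in CFA3D and 8.92 ± 10.2 in CFA6D (SD, n = 3). In reads, the values correspond to about 324 read pairs in CFA6D replicate 6 and about 5.8 in CFA6D replicate 4.

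Bglap2 (ENSMUSG00000074486, chr3:88377736-88378699, minus strand) is a near copy that also encodes osteocalcin and lies 4.80 kb from Bglap. It was listed at 0.857, 1.63 and 7.38 FPKM in saline, 2.25, 0.406 and 0.499 in CFA3D, and 0.171, 3.53 and 15.3 in CFA6D. The libraries came in the same order as for Bglap. Their coding sequences, printed here because the copies decide how well the values can be told apart, are both 288 bases long and differ at 4 bases, shown in capitals. Counted from 1 at the A of the start codon, with the base of Bglap first, the differences are A10C, T14C, A31G and T273C.
Bglap: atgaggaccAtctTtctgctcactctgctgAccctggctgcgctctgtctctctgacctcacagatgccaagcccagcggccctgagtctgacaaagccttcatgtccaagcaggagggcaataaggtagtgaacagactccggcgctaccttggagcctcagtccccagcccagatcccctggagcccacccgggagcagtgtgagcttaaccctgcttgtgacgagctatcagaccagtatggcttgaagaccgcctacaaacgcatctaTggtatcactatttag
Bglap2: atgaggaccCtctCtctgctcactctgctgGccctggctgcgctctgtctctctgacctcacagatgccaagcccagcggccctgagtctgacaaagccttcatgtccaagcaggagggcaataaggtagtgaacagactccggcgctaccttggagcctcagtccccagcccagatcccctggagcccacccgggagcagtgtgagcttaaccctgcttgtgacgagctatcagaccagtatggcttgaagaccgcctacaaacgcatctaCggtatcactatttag

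The identity of the coding sequences was 98.61%, and 74.68% of the 50-base windows and 56.3% of the 100-base windows of Bglap's 440-base transcript also occur in that of Bglap2. How the authors' counting divided such reads is not given in the sources used here, so the split between the copies is uncertain. The ratio of Bglap2 to Bglap lay between 0.475 and 1.15 in the 9 libraries. Together the copies stood at 13.8 FPKM in saline replicate 3, 9.65 in CFA6D replicate 5 and 35.6 in CFA6D replicate 6, and between 0.531 and 4.23 FPKM in the other 6 libraries. The sum thus shows the same libraries on top as either copy alone. Bglap3, a further copy 4.99 kb from Bglap2 that differs from Bglap at 13 coding bases, did not share the pattern. It lay at 0.222 to 0.765 FPKM, highest in saline replicate 1 and lowest in CFA6D replicate 6. This rests on about 7.5 to 23.2 read pairs per library. A retained-intron transcript carried 0.316 of the mean of 0.459 FPKM, and the coding transcript compared here averaged 0.0647 FPKM.

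Ibsp, Dmp1 and Mepe lie next to each other on chromosome 5 with Spp1 (osteopontin), in the cluster of acidic matrix proteins of mineralised tissue. Gaps of 85.1, 13.9 and 96.5 kb separate Dmp1, Ibsp, Mepe and Spp1 in this order. Ibsp (ENSMUSG00000029306, chr5:104299171-104311469) encodes bone sialoprotein, which starts mineral formation. It stood at 0.771, 1.19 and 3.05 FPKM in saline, 1.74, 0.749 and 1.14 in CFA3D, and 1.60, 2.80 and 8.01 in CFA6D. All 3 CFA6D libraries were above 2 of the 3 saline and 2 of the 3 CFA3D libraries, and the groups still overlapped.

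Dmp1 (ENSMUSG00000029307, chr5:104202613-104214102) encodes a phosphoprotein of the osteocyte matrix. It stood at 0.756, 0.440 and 2.48 FPKM in saline, 1.07, 0.505 and 0.603 in CFA3D, and 0.584, 3.20 and 3.40 in CFA6D. Here CFA6D replicates 5 and 6 differed by a factor of 1.06, where they differed 3.31-fold for Bglap, 4.33-fold for Bglap2 and 2.86-fold for Ibsp.

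Mepe (ENSMUSG00000053863, chr5:104325329-104338611) encodes a matrix phosphoglycoprotein made by osteocytes. It was listed at 0, 0.0198 and 0.265 FPKM in saline, 0.152, 0.0151 and 0 in CFA3D, and 0, 3.65 and 0.700 in CFA6D. In reads this was about 232 pairs in CFA6D replicate 5, 44.7 in CFA6D replicate 6, 17.9 in saline replicate 3, 10.8 in CFA3D replicate 1 and at most 1.0 in the other 5 libraries. Mepe thus peaked in another library than the other matrix genes, at 5.21 times its level in CFA6D replicate 6. Relative to Bglap it stood at 0.596 in CFA6D replicate 5 and at 0 to 0.0770 in the other 8 libraries.

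Phex (ENSMUSG00000057457, chrX:157162075-157415312, minus strand) encodes an endopeptidase of osteoblasts and osteocytes whose loss causes X-linked phosphate wasting. It stood at 0.107, 0.0145 and 0.589 FPKM in saline, 0.0959, 0.0410 and 0.0143 in CFA3D, and 0.0309, 0.500 and 0.608 in CFA6D. Its top 3 libraries were within a factor of 1.22, while each of the other 6 lay at or below 0.107 FPKM. Among all genes tested, Dmp1 was the nearest to Phex in its profile over the libraries, with a root mean square difference of 0.23 between the centred log2(FPKM + 0.1) values. This neighbour was looked up after the values had been seen.

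**Figure D2:**
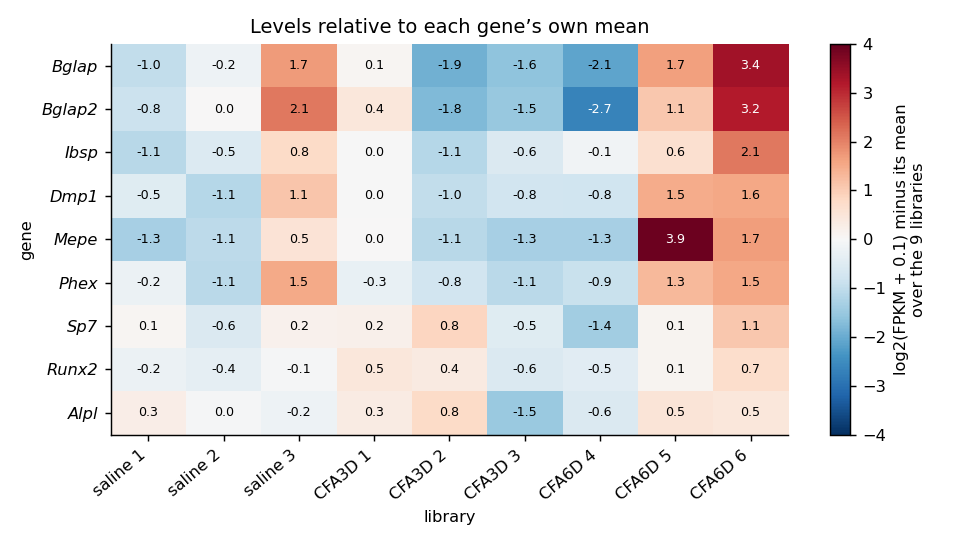
Levels as log2(FPKM + 0.1) minus the gene's mean over the 9 libraries (colour and printed value), with genes in rows and libraries in columns. The first 6 rows are high in saline replicate 3 and CFA6D replicates 5 and 6, while Sp7, Runx2 and Alpl span a narrower range and Alpl is lowest in CFA3D replicate 3.

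Neither transcription factor had saline replicate 3 and CFA6D replicates 5 and 6 as its 3 highest libraries. Runx2 (ENSMUSG00000039153, chr17:44495987-44814797, minus strand), the master regulator of the osteoblast lineage, stood at 1.41, 1.27 and 1.58 FPKM in saline, 2.31, 2.16 and 1.09 in CFA3D, and 1.18, 1.81 and 2.78 in CFA6D, a range of 2.56-fold. Sp7 (ENSMUSG00000060284, chr15:102356606-102367182, minus strand), which acts after Runx2, stood at 0.631, 0.366 and 0.671 FPKM in saline, 0.688, 1.14 and 0.391 in CFA3D, and 0.162, 0.647 and 1.35 in CFA6D, a range of 8.31-fold, beside 7.74-fold for Dmp1 and 10.7-fold for Ibsp. Both were highest in CFA6D replicate 6, and their order over the libraries otherwise differed from that of Bglap. In saline replicate 3, where Bglap was at 3.93 times its median over the libraries, Sp7 was at 1.04 times and Runx2 at 1.00 times theirs.

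Runx2 is transcribed from a distal promoter, used mainly in bone cells, and from a proximal promoter of wider use, here 78.1 kb apart. Summed over the 6 spliced transcripts of the proximal start, its level lay at 0.622 to 1.26 FPKM. The 6 spliced transcripts of the distal start stood at 0.150, 0.308 and 0.454 FPKM in saline, 0.665, 0.623 and 0.250 in CFA3D, and 0.299, 0.0959 and 1.37 in CFA6D. The distal spliced transcripts were thus highest in CFA6D replicate 6, as Bglap was, and lowest in CFA6D replicate 5, where Bglap was also high. A retained-intron transcript at the distal start did not share this low. It stood at 0.732 FPKM in CFA6D replicate 5 and 0.659 in CFA6D replicate 6, from 0 in saline replicate 1 to 0.794 in CFA3D replicate 2. For Sp7, the transcript that starts farther upstream held 51.1% of the gene's level in CFA6D replicate 6, 58.8% in CFA3D replicate 2, 37.5% in CFA3D replicate 1, 23.1% in saline replicate 3 and 3.58% to 6.09% in the other 5 libraries. These divisions rest on few reads: Sp7 as a whole had about 19.7 to 151 read pairs per library.

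**Figure D3:**
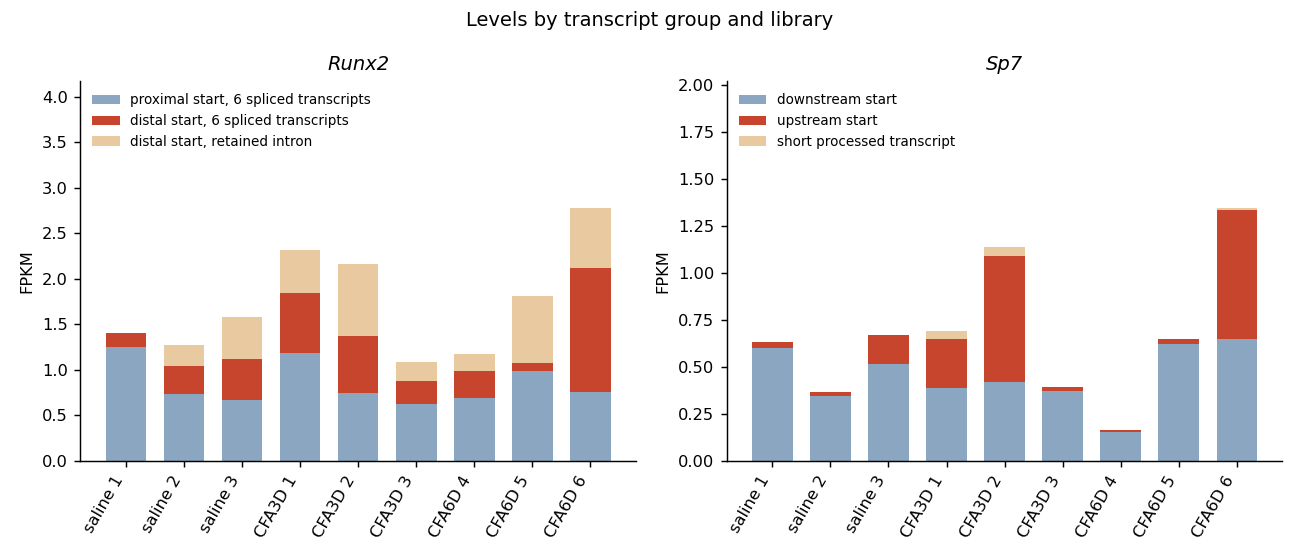
Level (FPKM, stacked bars from 0) of the transcripts of Runx2 by start site, left, and of Sp7, right, in each library. The proximal Runx2 transcripts lie between 0.622 and 1.26 FPKM, and the distal spliced transcripts reach 1.37 FPKM in CFA6D replicate 6. The upstream Sp7 transcript is large in CFA3D replicate 2 and CFA6D replicate 6.

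Alpl (ENSMUSG00000028766, chr4:137741733-137796384, minus strand), the tissue-nonspecific alkaline phosphatase that is also used by vessels and fibroblasts, was the most abundant of the 9 and had a pattern of its own. It stood at 12.9, 10.4 and 9.23 FPKM in saline, 13.5, 18.2 and 3.78 in CFA3D, and 7.14, 15.2 and 14.8 in CFA6D. Saline replicate 3, high for the matrix genes, was the third lowest library for Alpl. The longest coding transcript carried 71.9% to 90.1% of the level. The 5 genes nearest to Alpl in profile, looked up after the values had been seen, were Bgn, Col12a1, Mn1, Emilin1 and Eln, at root mean square differences of 0.172 to 0.196, where the median gene was at 0.662. Bgn, Col12a1, Emilin1 and Eln encode extracellular matrix proteins.

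Compared by group, the CFA days were not separated from saline for any of the 9 genes. The order of the means was CFA6D, saline, CFA3D for Bglap, Bglap2, Ibsp, Dmp1, Mepe and Phex. It was CFA6D, CFA3D, saline for Runx2 and Alpl, and CFA3D, CFA6D, saline for Sp7. For each of the 9 genes, means next to each other in this order differed by less than the larger of their SDs. For 0 of the 9 did the libraries of CFA3D and saline fail to overlap, against 9.13% of all genes tested. The count was also 0 of 9 for CFA6D and saline, against 16.2%, and 0 of 9 for CFA6D and CFA3D, against 16.7%.

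Expressed as log2 fold changes of FPKM + 0.1 in a linear model of all 9 libraries (limma), CFA3D against saline ran from -1.37 for Bglap2 and -1.33 for Bglap to 0.30 for Runx2, with 2 of the 9 (Runx2 and Sp7) above 0, beside 10398 of the 16096 genes tested. With the transcript of the highest mean in place of the gene sum, both fell below 0, Runx2 to -0.36 and Sp7 to -0.22. CFA6D against saline ran from 0.04 for Sp7 to 2.03 for Mepe, with 9 of 9 above 0, beside 8762 of the 16096. Of these, Bglap2 and Sp7 were at -0.03 each with a pseudocount of 0.01, and Sp7 and Runx2 at -0.16 and -0.14 with the transcript of the highest mean. CFA6D against CFA3D ran from -0.25 for Sp7 to 2.23 for Mepe, with 8 of 9 above 0, beside 7426 of the 16096. Bglap, Bglap2 and Ibsp were at 2.125, 1.47 and 1.45 there. The comparisons share the saline and the CFA libraries, and the genes were chosen on the same levels, so nothing is read from these counts.

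The folds turned on a few libraries. Without CFA6D replicate 6, Bglap on CFA6D against saline went from 0.79 to -0.40 and Bglap2 from 0.10 to -1.22, and without CFA6D replicate 4 they rose to 2.33 and 1.69. Without saline replicate 3, Bglap on CFA3D went from -1.33 to -0.56, and Dmp1 and Ibsp went from -0.42 and -0.29 to 0.22 and 0.24. Mepe on CFA6D went from 2.03 to 0.79 without CFA6D replicate 5. Ibsp between the CFA days went from 1.45 to 0.83 without CFA6D replicate 6. Dmp1, Ibsp, Mepe, Phex and Runx2 had a value above 0 on CFA6D against saline whichever library was left out, and that value was as low as 0.02 for Phex without saline replicate 2 and 0.05 for Runx2 without CFA6D replicate 6.

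Of the other genes of bone formation, in lists written with earlier results of these data known, 0 or 1 passed the test in each comparison. Calls needed an unadjusted p under 0.05 together with a log2 change of 1 or more, up or down. The lists held 18 genes of bone matrix and collagen assembly, 16 regulators, 8 genes of mineralisation and phosphate and 8 osteocyte genes, and 46 of these 50 had a mean high enough to be tested. On CFA3D against saline 0 of the 46 were called (0.342% of all genes), with a median log2 fold change of 0.04, beside 0.05 over all genes. On CFA6D against saline 0 of the 46 were called (0.584% of all genes), with a median of 0.07 beside 0.03. Between the CFA days 1 of the 46 was called (0.77% of all genes), with a median of 0.01 beside -0.02. No gene of the lists, and none of all genes tested, had an adjusted p under 0.05 in any of the 3 comparisons (limma, Benjamini-Hochberg), while an unadjusted p under 0.05 was reached by 0, 5 and 2 of the 46 and by 717, 1781 and 1190 of all genes.

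Most of these genes were also expressed at levels that did not follow the matrix genes. Sparc, Col1a2 and Col1a1, the most abundant of the bone matrix list, are collagen-matrix genes of all connective tissue. Col1a1 stood at 158 FPKM in CFA6D replicate 6 and at 24.9 to 55.9 FPKM in the other 8 libraries, and was not high in saline replicate 3 (31.6 FPKM). Sparc (271 to 350 FPKM) was lowest in saline replicate 3. Spp1, the neighbour of Mepe, was highest in the same 3 libraries as the matrix genes, at 46.9 FPKM in saline replicate 3, 50.1 in CFA6D replicate 5 and 88.4 in CFA6D replicate 6, against 33.2 to 40.4 in the others. Mmp13, a collagenase of late osteoblasts and growth plate cartilage, stood at 0.908, 0.588 and 6.06 FPKM there and at 0.00571 to 0.464 in the others.

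Among the regulators, the 3 most abundant, Atf4, Lrp6 and Gja1, are used by most cells. Of the 14 tested regulators 1, Vdr, the vitamin D receptor, had the same top 3 libraries, against 1.82% of all genes. Vdr stood at 0.584, 0.731 and 1.25 FPKM there and at 0.201 to 0.420 in the others. Mgp, Ank and Slc20a1 led the mineralisation list, of which 0 of 8 had those top 3 libraries (1.82% of all genes). Mgp, an inhibitor of calcification in vessels and cartilage, was lowest in CFA3D replicate 3 at 88.2 FPKM, as Alpl was.

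The osteocyte list was led by Capg, Mmp14 and Pdpn, which are not particular to bone. Sost, the osteocyte inhibitor of Wnt signalling, was the gene nearest to Mepe in profile. It stood at 1.29 FPKM in CFA6D replicate 5 and at 0 to 0.0809 FPKM in the other 8 libraries, and so was 16.9 times as high in CFA6D replicate 5 as in CFA6D replicate 6. Mepe and Sost were thus highest in CFA6D replicate 5, while Bglap, Bglap2, Ibsp and Col1a1 were highest in CFA6D replicate 6. Genes typical of osteocytes did not all go with Mepe. Dmp1 (3.40 against 3.20 FPKM in CFA6D replicate 5) and Phex (0.608 against 0.500) were highest in CFA6D replicate 6. Of the osteocyte list, Fgf23 was also higher there (0.642 against 0.337), and Dkk1 was higher in CFA6D replicate 5 (0.170 against 0.0740).

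**Figure D4:**
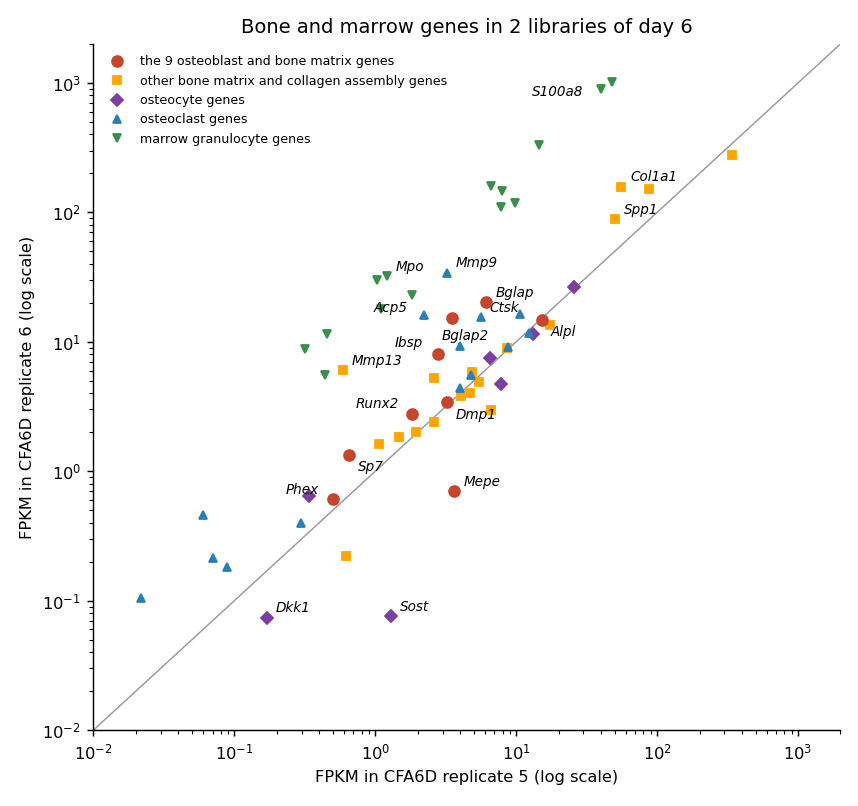
FPKM of each gene in CFA6D replicate 5 (x axis) and CFA6D replicate 6 (y axis), both on log scales, for the 9 genes (circles) and 4 lists, leaving out genes at 0 in either library. The line marks equal levels. Granulocyte genes, Mmp9 and Acp5 lie far above the line, Bglap, Bglap2 and Ibsp above it, Dmp1, Phex and Alpl near it, and Mepe and Sost below it.

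Genes of other cells that could lie in or beside the tissue were followed in the same way. Osteoclast genes were led by Tcirg1, Clcn7 and Ostm1, which are not limited to osteoclasts. The list summed to 42.8 to 62.5 FPKM in 8 libraries and to 123 FPKM in CFA6D replicate 6. Acp5 (16.0 FPKM), Ctsk (15.5 FPKM) and Mmp9 (34.1 FPKM), enzymes of bone resorption, were highest there. In saline replicate 3 they stood at 1.04, 4.62 and 1.38 FPKM, within the range of the 6 libraries where the matrix genes were low. In CFA6D replicate 5, Acp5 (2.22 FPKM) and Mmp9 (3.23 FPKM) were above that range, which ended at 1.11 and 1.90 FPKM, and Ctsk (5.60 FPKM) was within it. The defining marker Calcr stood at 0.0623 FPKM in CFA6D replicate 6, at no more than 0.0204 elsewhere and at 0 in 3 libraries. Atp6v0d2, Dcstamp and Siglec15 were also highest in CFA6D replicate 6, at 0.458, 0.214 and 0.182 FPKM. Elsewhere they reached at most 0.0595, 0.0932 and 0.0886 FPKM, and these low genes had means under the filter of 0.1 FPKM. Of the 10 tested osteoclast genes, 4 were highest in CFA6D replicate 6 (17.5% of all genes), while Oscar peaked in CFA3D replicate 1. Of 10 tested osteoclast genes 1 was called, Mmp9 between the CFA days (0.77% of all genes). On CFA3D and CFA6D against saline 0 were called (0.342% and 0.584% of all genes). Relative to CFA6D replicate 5, CFA6D replicate 6 was 10.6-fold for Mmp9, 7.22-fold for Acp5 and 2.76-fold for Ctsk. Granulocyte genes were also highest in that library, and which cells carried Mmp9 was not tested.

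Granulocyte genes of bone marrow, led by S100a9, S100a8 and Ngp, were highest in CFA6D replicate 6 for 14 of 14 (17.5% of all genes). Their sum was 2927 FPKM there, against 27.9 to 150 FPKM in the other 8 libraries. Mpo, an enzyme of immature granulocytes, stood at 32.2 FPKM there and at 0.268 to 2.14 FPKM elsewhere. In saline replicate 3 and CFA6D replicate 5, the sums of 54.0 and 141 FPKM lay within the range of the libraries with low matrix genes. None of the 14 was at 0 in any library. Between the CFA days 10 of the 14 were called, all higher on day 6 (0.77% of all genes). On CFA6D against saline 3 were called (0.584% of all genes). Their log2 fold changes depended on CFA6D replicate 6: S100a8 between the CFA days went from 3.16 to 1.69 without it, and Mpo from 2.80 to 1.23. The part of these cells in the levels of the matrix genes in CFA6D replicate 6 was not tested. In bulk tissue, more cells of a type and more RNA per cell cannot be told apart.

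The other lists differed in the libraries where they were highest. Skeletal muscle genes, led by Acta1, Tnnt3 and Mylpf, summed to 231 FPKM in saline replicate 2, 107 in CFA6D replicate 6, 54.4 in saline replicate 1 and 3.57 to 15.4 in the others. Cartilage genes, led by Col9a2, Cnmd and Col11a2, summed to 51.5 FPKM in CFA6D replicate 6 and 44.9 in saline replicate 3. The sums were 36.2 in CFA6D replicate 5 and 24.7 to 35.4 elsewhere, so their 3 highest fell in the same libraries as those of the matrix genes. Of the 13 tested, 3 (Col9a2, Col11a1 and Prg4) had the same top 3 libraries as the matrix genes, against 1.82% of all genes. Tooth matrix genes, led by Amelx, Enam and Klk4, summed to 0.0714 to 0.271 FPKM, and Dspp, the main gene of dentine, was at or below 0.0119 FPKM. Genes of B cell precursors, led by Cd79a, Cd79b and Vpreb1, summed to 6.26 FPKM in CFA6D replicate 6 and 1.27 to 2.52 FPKM elsewhere. Erythroid genes (Hba-a1, Hbb-bs, Hba-a2), connective tissue fibroblast genes (Dcn, Ogn, Col3a1) and endothelial genes (Egfl7, Cdh5, Cldn5) had their highest sums in saline replicate 2 or CFA3D replicate 2. The haemoglobin genes made up nearly the whole erythroid sum, while 7 of the 12 tested erythroid genes were highest in CFA6D replicate 6 (17.5% of all genes), such as Slc4a1, the anion exchanger of red cells, at 8.73 FPKM against at most 1.29, and Klf1, an erythroid transcription factor, at 1.64 against at most 0.305. Of the tested genes of these 7 lists, the calls included Myh1 on CFA3D (lower), Vpreb1 on CFA6D (lower), and Slc4a1 and Neb between the CFA days (higher on day 6).

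**Figure D5:**
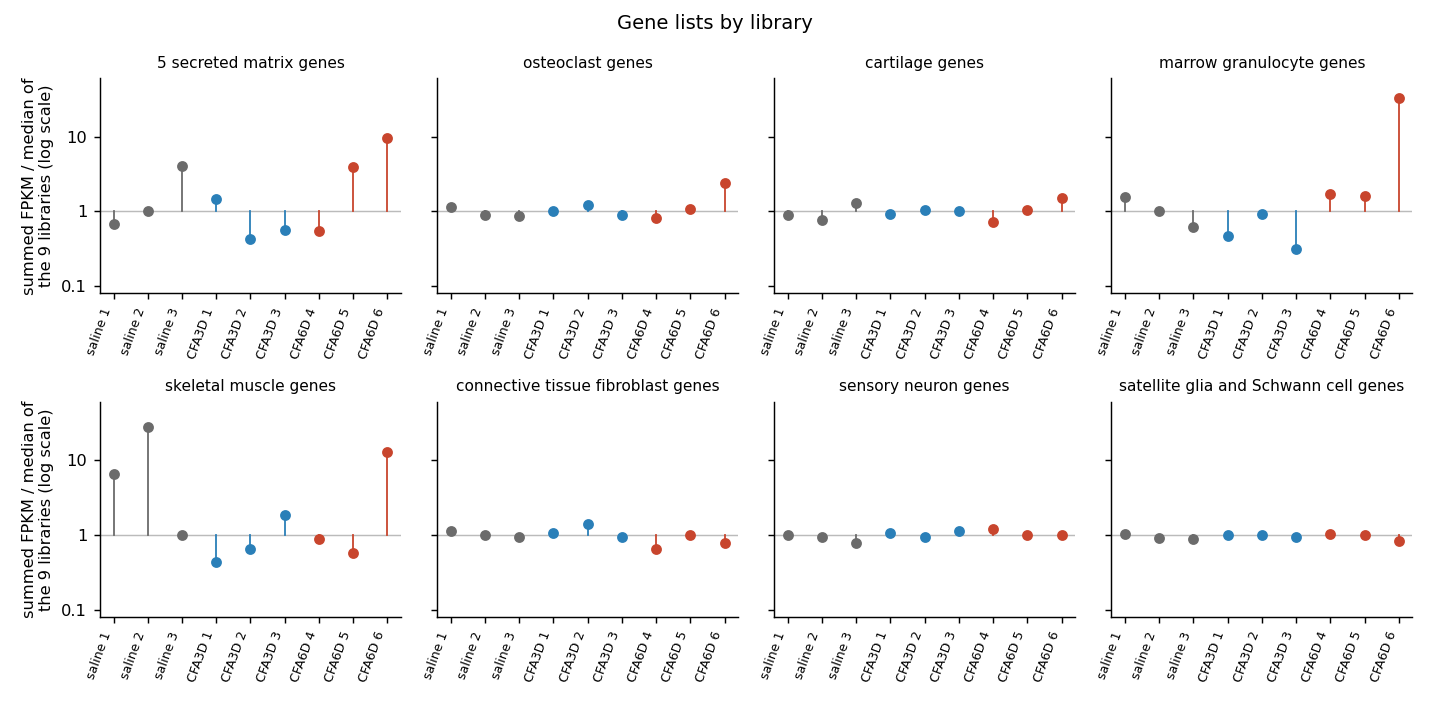
Summed FPKM of the 5 secreted matrix genes and of 7 lists in each library, divided by the median of the 9 libraries (y axis, log scale, a grey line at 1). The secreted matrix genes reach 3.99, 3.94 and 9.72 in saline replicate 3, CFA6D replicate 5 and CFA6D replicate 6, and the granulocyte genes reach 33.2 in CFA6D replicate 6 alone among these 3.

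The mean profile of the 9 genes, in centred log2(FPKM + 0.1), was 0.85 in saline replicate 3, 1.20 in CFA6D replicate 5 and 1.74 in CFA6D replicate 6, and lay between -1.15 and 0.13 in the other 6 libraries. The 10 other genes nearest to it were Zbtb42, Wnt10b, Cyp2j13, H2al1m, Mzb1, Inhba, Tnfaip8l3, Oxct2a, Pdzrn4 and Tnc, at root mean square differences of 0.332 to 0.563 over the 9 libraries, where the median of 16087 genes was 0.994. Zbtb42, a zinc finger protein, stood at 1.05, 1.40 and 1.59 FPKM in the 3 libraries and at 0.340 to 0.500 in the others. Wnt10b, a secreted Wnt ligand, stood at 0.109, 0.262 and 0.313 FPKM there and at 0 to 0.0821 in the others, close to the filter of 0.1 FPKM on the mean. Tnc, which encodes the matrix protein tenascin C, was at 6.44 FPKM in CFA6D replicate 6 and at 0.349 to 1.35 in the other 8. Among the listed genes, Ifitm5, Vdr and Dlx5 ranked 13, 18 and 40 of 16087 by nearness to the profile. Others of the same lists ranked far from it, such as Atf4 at 9883, Sparc at 10889 and Bglap3 at 15433. Nearness was not limited to bone-forming lists: Ctsk (osteoclast), Col11a2 (cartilage) and Fmod (fibroblast) ranked 43, 44 and 65. Further genes of those lists ranked far, such as Mmp9 at 13290, Cnmd at 13951 and Dcn at 15178. The profile itself was built from genes chosen on these levels.

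Because Runx2 binds promoters of bone matrix genes, the 250 bases before the annotated start were searched for the core of its motif, ACCACA, or TGTGGT on the other strand. Of the 9 genes, 7 had a RefSeq promoter entry (GRCm38.p6), and 4 of these 7 (Bglap, Dmp1, Mepe and Runx2) held the motif, beside 15.92% of 27025 genes with an entry. A match says only that the letters are there. The 3 matrix promoters are shown 5′ to 3′ in the direction of transcription with the motif in capitals, because their genes were among those with the same top libraries. The windows are chr3:88384467-88384716 for Bglap, chr5:104202367-104202616 for Dmp1 and chr5:104325079-104325328 for Mepe. The motif starts 132 bases before the start of Bglap, 164 before that of Dmp1, and 118 and 80 before that of Mepe.
Bglap promoter: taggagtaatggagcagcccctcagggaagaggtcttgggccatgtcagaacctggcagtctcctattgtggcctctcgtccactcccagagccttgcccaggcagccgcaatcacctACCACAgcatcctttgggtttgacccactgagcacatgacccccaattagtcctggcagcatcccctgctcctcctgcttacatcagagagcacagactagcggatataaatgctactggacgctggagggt
Dmp1 promoter: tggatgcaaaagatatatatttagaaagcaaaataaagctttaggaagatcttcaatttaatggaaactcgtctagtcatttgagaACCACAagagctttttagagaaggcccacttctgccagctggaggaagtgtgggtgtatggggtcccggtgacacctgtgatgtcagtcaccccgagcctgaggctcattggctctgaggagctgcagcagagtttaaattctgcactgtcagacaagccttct
Mepe promoter: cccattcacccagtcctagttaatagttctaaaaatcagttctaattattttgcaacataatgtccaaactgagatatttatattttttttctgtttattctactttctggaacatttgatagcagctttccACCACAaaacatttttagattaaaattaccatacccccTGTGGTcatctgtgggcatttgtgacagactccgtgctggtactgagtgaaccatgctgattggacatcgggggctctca

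Ibsp and Phex, which had the same top libraries, had an entry without these letters, and Runx2 held them 80 bases before its start. Alpl had them in none of its entries, and a further entry of Dmp1 (chr5:104197325-104197574) was without them. Counted by entry, 4 of 9 held the motif, beside 14.05% of 32851 entries. Bglap2 and Sp7 were the 2 genes without an entry.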

How the data were processed

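Total RNA of TG pools was sequenced in 9 libraries. The authors deposited FPKM values per transcript and library. The study's methods describe Ribo-Zero depletion, stranded libraries, Trimmomatic 0.32, GRCm38.72 and CLC Genomics Workbench 7.0.2, while the submitters' processing notes name Bowtie 0.12.2 and mm8. Whether counting used strand is not given in the sources used here, so Runx2 and its antisense genes cannot be told apart. Transcripts were joined by ID to GENCODE release M21 (101539 of 102122 matched), and FPKM were summed per gene. The worth of 1 read pair came from the step of FPKM times length in genes with 1 transcript, so reads are approximate.

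Gene sums were fitted as log2(FPKM + 0.1) in limma 3.58.1 (R 4.3.3) with a mean trend, all 9 libraries and no covariate. The smallest exact permutation p with 3 against 3 libraries is 0.1, so none is given. The fit was tested on simulated data. The genes and the lists were chosen with earlier results of these data known. Named are the 9 genes, the 3 most abundant genes of each list, listed bone, cartilage, tooth or osteoclast genes that were called, the 10 genes nearest in profile, and the Runx2 antisense lncRNAs. Others were named after their values were seen. Some listed genes count in sums and calls but are not reported here by name. Alternatives were other pseudocounts, filters, quantile normalization, fits of 2 groups, the transcript with the highest mean FPKM, a replicate block, and libraries left out. The table of other noncoding RNA holds 0 listed genes and was not used.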

Additional observations from a re-analysis of the deposited data

Results flagged for a closer look

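Outside the mRNA table, the antisense lncRNA Runx2os1, whose locus overlaps the proximal start of Runx2, was above the saline level in all 6 CFA libraries. The study's supplement already lists Runx2os1 among its top lncRNAs raised on both CFA days. Its values there are higher than those here and carry no named unit, so the levels are not compared. It was listed at 0, 0 and 0.0229 FPKM in saline, at 0.171, 0.184 and 0.0547 FPKM in CFA3D, and at 0.0368, 0.121 and 0.116 FPKM in CFA6D. These levels correspond to about 5.7, 5.7, 1.6, 1.1, 3.6 and 3.5 read pairs in the CFA libraries and 0.7 in saline replicate 3, so the lowest values are at the level of 1 read pair. Among 7562 lncRNA genes above 0 in a library, 75 (0.992%) had all 6 CFA libraries above the 3 saline libraries. Runx2os2 (0.173 to 1.10 FPKM) and Runx2os3 (0.0225 to 0.189 FPKM) overlapped between the groups.

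Between the CFA days, Mmp9 was higher on day 6 by 2.48 on the log2 scale (adjusted p 0.641, limma), and by 1.23 without CFA6D replicate 6. It fails the correction for multiple tests, and which cells carried it was not tested.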

How the results depend on the processing

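Gene sums called on CFA3D against saline, CFA6D against saline and CFA6D against CFA3D numbered 55, 94 and 124. They were 9, 20 and 36 with a pseudocount of 1, 18, 37 and 60 with a mean of at least 1 FPKM, and 146, 201 and 203 with the transcript of the highest mean. With saline replicate 3 and CFA6D replicate 6 both dropped, a choice made after seeing the data, 145 and 215 were called against saline. With each library left out in turn the counts ran from 46 to 108, from 85 to 240 and from 102 to 273, with the highest counts without saline replicate 3, CFA6D replicate 4 and CFA6D replicate 4. Of the other bone-forming genes, the single call between the CFA days went to 0 with a pseudocount of 1, a mean of at least 1 FPKM, quantile normalization, only the 2 groups compared, the highest transcript or both libraries dropped, and to 2 with no filter. On CFA6D against saline 1 was called with a pseudocount of 0.01. With a library left out these counts ran from 0 to 5 on both day 6 comparisons, with 5 without CFA6D replicate 4, and 0 without saline replicate 1 or 3, CFA3D replicate 1 or 3, or CFA6D replicate 5 or 6 between the days. On CFA3D the count was 0 under each alternative. The cause was not tested.

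Same-numbered saline and CFA3D libraries correlated at 0.0873, -0.0802 and 0.03 in their deviations from the group means, and differently numbered ones at -0.1102 to 0.0605. So few values gave no clear sign of pairing by number and cannot exclude it. With the replicate block, fitted on the saline and CFA3D libraries alone, 115 gene sums were called on CFA3D against saline and 0 of the other bone-forming genes. CFA6D carries other numbers.

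Levels worth fewer than 10 read pairs in some libraries limit what can be seen for Mepe, Phex, Bglap and Bglap2, and log2 fold changes of low genes depend on the pseudocount, as for Mepe on CFA6D at 2.77 with 0.01 and 0.87 with 1.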
